A study of Capra hircus with 2 samples.

Results

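miR-191 and miR-425 are microRNAs (miRNAs), short RNAs that pair with messenger RNAs and reduce their output. Their hairpins lie next to each other in mammals and are made from 1 primary transcript, which shares its locus with DALRD3, a gene for a protein linked to transfer RNA methylation. Each hairpin is cut into a 5p and a 3p arm, and bases 2 to 8 of the arm that is loaded, the seed, do most of the target pairing. miR-191 is abundant in many tissues, testis and sperm included, and miR-425 is known as its less abundant partner. The members were all table entries named miR-191 or miR-425 after removal of the species prefix, copy number and arm, which gave 6 of 2599 entries in the CD49f-positive library and 5 of 2338 in the CD49f-negative library. They form 4 of 1808 names with an arm, and 3 of these 4 were among the 298 names with at least 100 reads over both libraries.

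The cells came from 3 testes of 3 Saanen dairy goats aged 5 months, with no treatment named other than enzyme digestion and a night of plating. Cells that stayed unattached were sorted with magnetic beads for CD49f, the integrin alpha-6 chain used to enrich spermatogonial stem cells, into a CD49f-positive and a CD49f-negative group. Each group has 1 library here, whether goats were pooled is not stated, and no difference below has a replicate check or a p-value. Shares are of 8196507 reads given to named miRNAs in the positive library and 3064462 in the negative library, and intervals are exact Clopper-Pearson 95% intervals that cover counting error only: reads that carry no molecular identifiers cannot be counted as separate molecules.

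Reads of marker miRNAs of several cell types were found in both libraries. Whether each cell type was present was not tested. Marker miRNAs of meiotic and later germ cells (miR-34b, miR-34c and miR-449a) took 2.25% of the positive and 11.4% of the negative reads, those of smooth muscle and other mesenchymal cells 22.7% and 19.1%, and the endothelial miR-126 1.43% and 0.755%. In the mesenchymal list, miR-143-3p alone gave 1813387 of 1860386 positive and 564567 of 585726 negative reads. The order of that list's shares therefore follows miR-143-3p and does not describe its other members. Arms of these other members went both ways. The log2 ratio of shares, positive over negative, was 0.56 for miR-145-3p and 0.058 for miR-214-3p. It was -1.24 for miR-145-5p, the arm of miR-145 with fewer reads over both libraries, and -0.23 for miR-199a-5p. The lists for Sertoli cells, red blood cells, white blood cells and epithelium took from 0.00316% to 0.296% of the positive reads and from 0.00933% to 0.372% of the negative reads, and each of the 21 marker miRNAs had reads in both libraries. The part of these cell types in the members' values was not tested, and fewer cells of a type cannot be told apart from less RNA per cell.

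Both hairpins lay on the plus strand of goat chromosome 22 in the deposited coordinates, whose genome build is not given in the sources used here. They are shown so that the place of each arm can be read, with the listed arms of the CD49f-positive library in capitals.
miR-191 hairpin, chr22:50735134-50735237: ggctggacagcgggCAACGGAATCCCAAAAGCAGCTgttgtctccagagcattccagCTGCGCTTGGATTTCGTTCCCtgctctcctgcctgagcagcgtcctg
miR-425 hairpin, chr22:50735615-50735700: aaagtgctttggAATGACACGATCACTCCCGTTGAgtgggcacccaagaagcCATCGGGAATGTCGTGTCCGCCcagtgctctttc
The hairpins were 104 and 86 bases long, and 377 bases separated them. The nearest other known hairpin listed on this strand, let-7g, ended 2316479 bases before miR-191, so no further listed hairpin shared the locus on that strand. In the RefSeq gene table for assembly ARS1.2, MIR191 lay between NDUFAF3 and DALRD3, and MIR425 lay within the bounds of DALRD3. That table gives no exons, so exonic or intronic position was not analysed here. The miR-191 hairpin had a GC content of 59.6% and a predicted folding energy of -49.9 kcal/mol, and the miR-425 hairpin had 54.7% and -32.8 kcal/mol. Of 434 known hairpins listed in the positive library, whose median energy was -38.2 kcal/mol, 40 were more stable than miR-191 and 299 were more stable than miR-425.

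The listed sequences of the arms follow with the seed in capitals, because the seed is what sets an miRNA's targets and because 3 of the 4 arms began at another base than the reference sequence in at least 1 library.
miR-191-5p, both libraries: cAACGGAAtcccaaaagcagct
miR-191-3p, CD49f-positive: cTGCGCTTggatttcgttccc
miR-191-3p, CD49f-negative: gCTGCGCTtggatttcgttc
miR-425-5p, both libraries: aATGACACgatcactcccgttga
miR-425-5p, cow reference: aTGACACGatcactcccgttga
miR-425-3p, both libraries: cATCGGGAatgtcgtgtccgcc
miR-425-3p, cow reference: aTCGGGAAtgtcgtgtccgccc
The miR-191-5p sequence was the cow reference without its last base and kept the reference seed AACGGAA. Both miR-425 arms began 1 base before the cow reference that the deposited tables matched them to, which moves the seed of miR-425-5p from TGACACG to ATGACAC and that of miR-425-3p from TCGGGAA to ATCGGGA. The miR-191-3p sequence matched a Chinese hamster reference in the positive library and began 1 base earlier in the negative library, so its seed read TGCGCTT in the first and CTGCGCT in the second. Each table entry lists 1 sequence, chosen by the authors for its mapping score. For miR-191-3p, which has more than 1 entry in each library, the sequence with most copies is shown. The copies in the positive and negative library were 17 and 10 for miR-191-3p, 22 and 13 for miR-425-5p, and 8 and 7 for miR-425-3p. These starts therefore describe single listed sequences, not all reads of an arm. For both miR-425 arms the moved start is relative to the cow reference alone, and references of other species were not compared. None of the 5 seeds of the listed sequences was the seed of a listed sequence of any other name among 4476 named entries.

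miR-191-5p, the arm of this hairpin known to act on targets, was among the most abundant miRNAs of both sorted groups. It had 51474 reads in the CD49f-positive library, 0.628% of named reads (95% interval 0.623 to 0.633), and 25159 reads in the CD49f-negative library, 0.821% (0.811 to 0.831). It ranked 18th of 1455 names with a read in the first and 15th of 1291 in the second. Its share was the smaller in the positive library, with a log2 ratio of -0.39 (-0.41 to -0.36), or 1.31 times lower, a direction that turned to 0.046 with median-of-ratios scaling. The size is under the 2-fold change asked for a call.

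miR-425-5p, the main arm of the partner hairpin, was a minor miRNA in both groups. It had 138 reads in the positive library, 16.8 RPM (reads per 1000000 named reads; 14.1 to 19.9), and 93 in the negative library, 30.3 RPM (24.5 to 37.2). Its log2 ratio was -0.85 (-1.24 to -0.45), or 1.81 times lower in the positive library, also short of a 2-fold call. The interval reached past 2-fold on this read-total scale. It stayed inside 2-fold with TMM, at -0.51 (-0.90 to -0.11), and with median of ratios, at -0.42 (-0.81 to -0.022). With scaling factors taken without a minimum of reads the ratio was near equal shares, as given below.

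The 3p arms, which are mostly discarded after the hairpin is cut, were scarce. miR-191-3p had 98 and 45 reads, 12.0 and 14.7 RPM, with a log2 ratio of -0.31 (-0.82 to 0.25) that turned to 0.035 with TMM scaling. miR-425-3p had 41 and 24 reads, 5.00 and 7.83 RPM, and fell short of 100 reads over both libraries, with a log2 ratio of -0.66 (-1.41 to 0.14). Neither interval excluded equal shares, so a difference was not detectable at this depth. Of the miR-191-3p reads, 8 in the positive and 7 in the negative library came from entries of 15 or 16 bases that carried 1 mismatch and were matched to mouse or platypus hairpins not placed on the goat genome. With known goat hairpins alone the log2 ratio of miR-191-3p was -0.19.

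**Figure D1:**
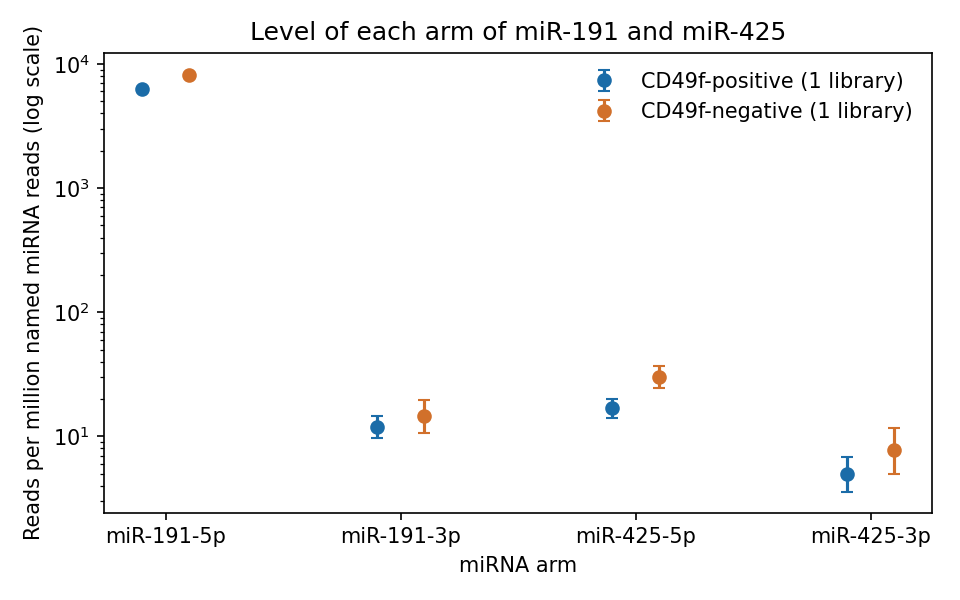
RPM (log axis) of each arm in the CD49f-positive and CD49f-negative library, 1 library per group, with exact 95% intervals for counting error. miR-191-5p stands far above the 3 other arms, which lie between 5.00 and 30.3 RPM. Each arm's point is lower in the positive library on this read-total scale. Median-of-ratios scaling turns the order for both miR-191 arms, and factors taken without a minimum of reads turn it for miR-425-3p as well.

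All 4 arms had a smaller share of named reads in the positive library, a direction that turned under some of the scalings below for both miR-191 arms and for miR-425-3p, and no measured arm met the call rule of at least 100 reads, a 2-fold ratio and an interval that excludes 1. Over all 298 measured names this rule was met by 74 lower names (24.8%) and 6 higher names (2.01%), and the median log2 ratio was -0.43. miR-191-5p thus lay beside the median, with 152 names below it, while miR-425-5p had 86 names below it. The direction for miR-191-5p depends on the scaling: its log2 ratio was -0.047 with TMM, which is less sensitive to the dominant miRNAs, and 0.046 with median-of-ratios scaling. miR-425-5p was at -0.51 and -0.42. miR-191-3p turned above 0 under both, at 0.035 and 0.13, and miR-425-3p was at -0.32 and -0.23. TMM raised every log2 ratio by 0.34 and median of ratios by 0.43, and they gave 49 lower and 17 higher names (16.4% and 5.7%) and 40 lower and 26 higher names (13.4% and 8.72%). Factors taken with no minimum of reads among the 1808 names, chosen after seeing the data, raised log2 ratios by 0.82 with TMM and 0.83 with median of ratios. The balance of calls then turned, to 15 lower and 49 higher names and to 15 lower and 50 higher names. With these factors miR-425-5p came to -0.032 (-0.42 to 0.37) and -0.018 (-0.41 to 0.38), near equal shares, and miR-425-3p turned above 0, at 0.16 and 0.18. miR-191-5p came to 0.43 and 0.45. Only 592 of the 1808 names had at least 10 reads over both libraries, and names with 0 reads in a library do not enter these factors. The factors thus include many names with few reads, whose part in the shift was not tested.

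**Figure D2:**
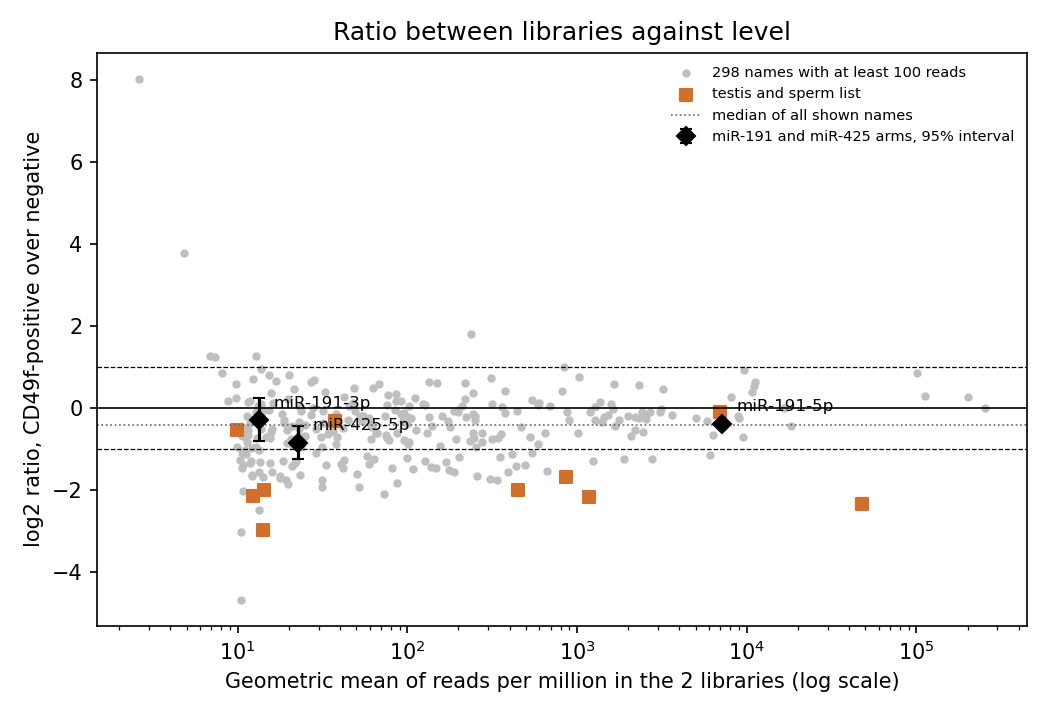
Log2 ratio of shares (positive over negative library) against the geometric mean level (log axis) for the 298 names with at least 100 reads, with 0.5 reads added to each count, so that a name with 0 reads in a library is shown at a value set by that addition. The points of the measured arms of miR-191 and miR-425 (diamonds, 95% intervals) lie within the 2-fold lines (dashed). miR-191-5p lies beside the median of all names (dotted) at -0.43. Of the 10 squares of the testis and sperm list, 7 lie below the lower line, all of them arms of miR-34 or miR-449.

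The partners differed in level far more than in their ratio between the libraries. miR-191-5p had 373.0 reads for each miR-425-5p read in the positive library and 270.5 in the negative library. The gap in log2 ratio between the partners, which does not depend on how the libraries are scaled, was 0.47, with an exact odds-ratio interval of 0.068 to 0.85. Over reads with no mismatch the numbers were 408.9 and 339.0 miR-191-5p reads per miR-425-5p read, and the gap was 0.28 (-0.22 to 0.75), an interval that includes 0. With the listed sequence alone the gap was 0.52 (-0.61 to 1.56), which includes 0 as well. Reads of different miRNAs also depend on how well each sequence is ligated and copied, which was not tested, so these numbers are reads and not molecules.

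Other miRNA pairs made from a shared transcript gave a scale for both gaps. Of 14 reference pairs, 13 had both partners measured, and the count leaves out miR-195 and miR-497. Each partner was taken by its arm with more reads over both libraries. The more abundant partner had a median of 5.01 times the reads of the other in the positive library and 4.64 times in the negative library. The largest gap among them, 79.1-fold and 97.2-fold, belonged to miR-143 and miR-145, miRNAs of smooth muscle, and none of the 13 exceeded the gap of miR-191 and miR-425 in either library. The difference of log2 ratios was less unusual. It had a median of 0.43 and a range from 0.052 to 1.03 over the 13 pairs, with 6 larger than that of miR-191 and miR-425 and 7 smaller. These values depend on the arm taken. miR-145 was taken by miR-145-3p, although miR-145-5p had more reads in the negative library (8864 against 5808). The log2 ratio was 0.56 for miR-145-3p and -1.24 for miR-145-5p, beside 0.26 for miR-143-3p. With miR-145-5p the difference of that pair would lie above the range, and its level gap would change as well. The closest partners were miR-23b and miR-27b (0.052) and miR-99b and miR-125a (0.15), and the farthest were miR-93 and miR-25 (0.87) and miR-532 and miR-660 (1.03). These are descriptions of 2 libraries, and some of the named partners have near-identical relatives among which reads were split.

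**Figure D3:**
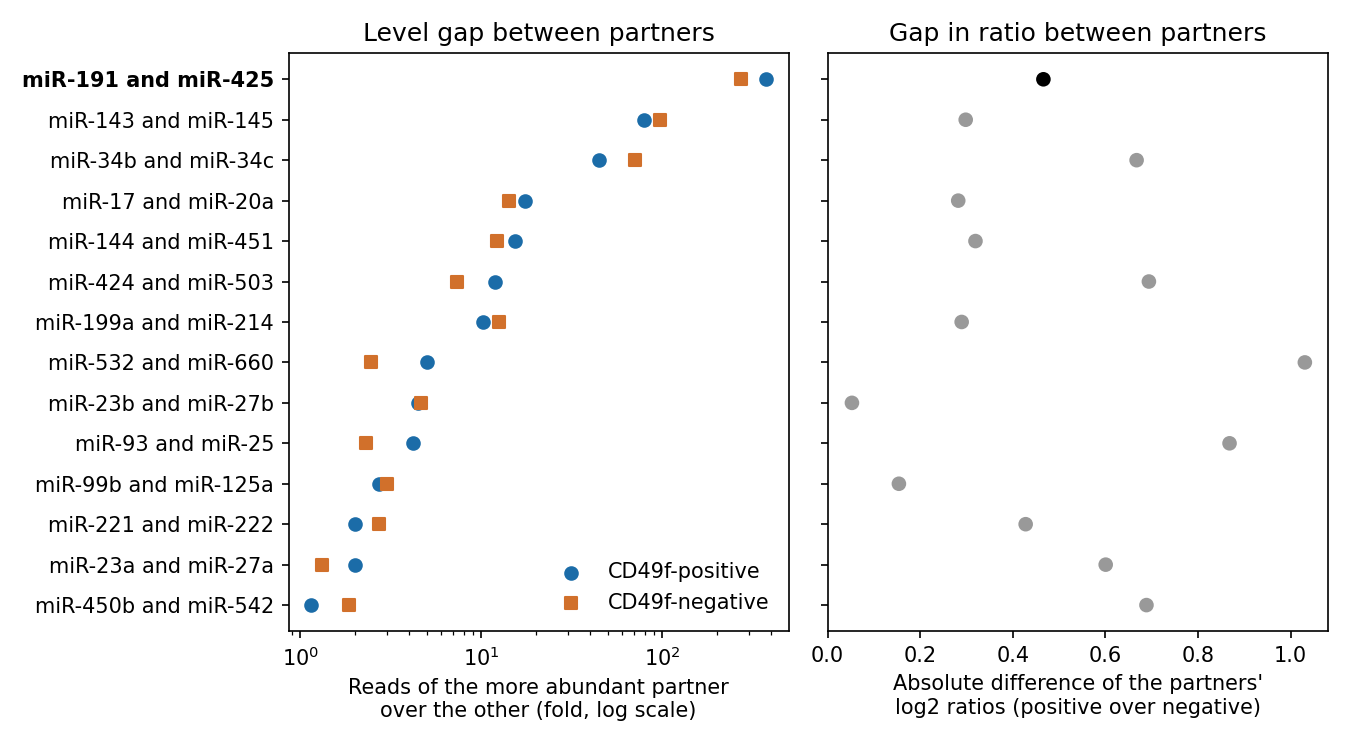
Left, reads of the more abundant partner over the other (fold, log axis) in each library for miR-191 and miR-425 (bold) and 13 reference pairs; right, the absolute difference of the partners' log2 ratios. miR-191 and miR-425 have the widest level gap of the 14 pairs in both libraries, 373.0-fold and 270.5-fold, while their difference of log2 ratios, 0.47, lies in the middle of the range.

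The 2 hairpins also differed in how unequally their arms were kept. For miR-191 the 5p arm held 99.81% of the reads of both arms in the positive library (99.77 to 99.85) and 99.82% in the negative library (99.76 to 99.87). For miR-425 it held 77.1% (70.2 to 83.0) and 79.5% (71.0 to 86.4). The dominant arm held a median of 98.0% and 97.8% over 209 miRNA names with both arms listed and at least 100 reads. A more unequal split than that of miR-191 was found for 47 and 50 of them, while 175 and 169 were more unequal than miR-425. Within each hairpin the arm split differed between the libraries by less than the counting error. The 5p arm's log2 ratio minus that of the 3p arm was -0.082 for miR-191 (-0.63 to 0.43) and -0.19 for miR-425 (-1.09 to 0.66), and these intervals leave room for differences of up to 1.09 on the log2 scale.

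**Figure D4:**
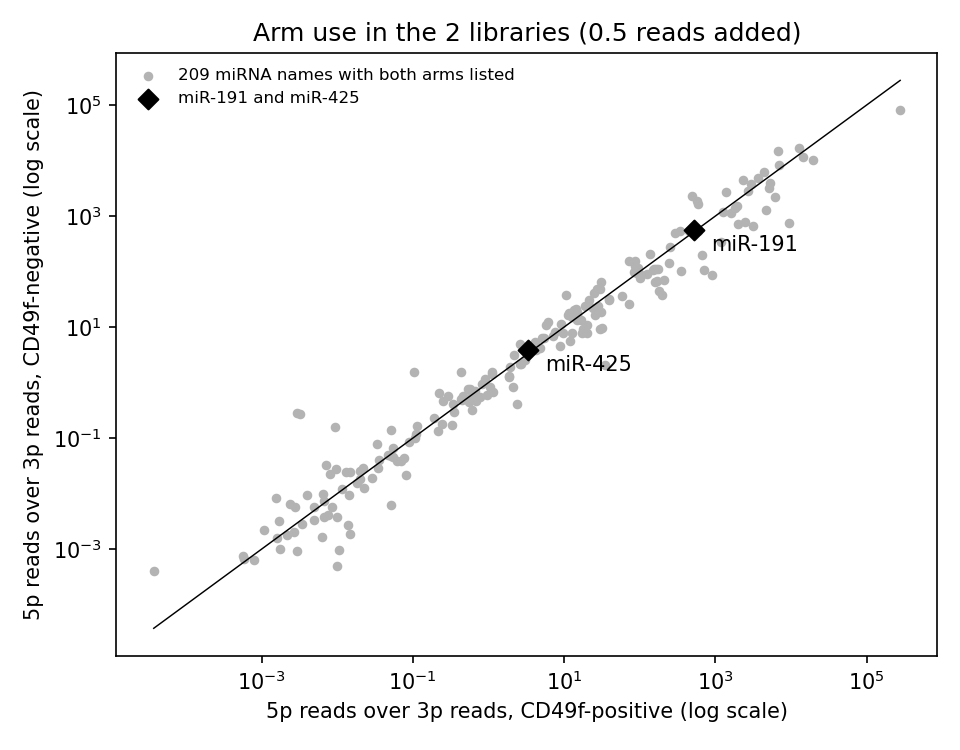
Reads of the 5p arm over reads of the 3p arm in the CD49f-positive library (x axis) and the CD49f-negative library (y axis), both on log axes with 0.5 reads added, for 209 miRNA names with both arms listed; the line marks equal values. miR-191 and miR-425 lie close to the line, miR-191 with over 99% of its reads on the 5p arm and miR-425 with 77.1% and 79.5%.

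The make-up of the miR-191-5p reads differed between the libraries. The listed sequence made up 60.2% of them in the positive library (59.8 to 60.6) and 51.4% in the negative library (50.8 to 52.0), and reads with at least 1 mismatch made up 15.8% (15.5 to 16.1) and 23.2% (22.7 to 23.7). Most other abundant miRNAs moved the same way. Of 88 names with at least 1000 reads in each library, 81 had the larger mismatch share in the negative library, with a median difference of 6.17 percentage points against 7.41 for miR-191-5p, and 31 had a larger difference than miR-191-5p. Of the 73 of these names that listed the same sequence in both libraries, 59 had a smaller share of it in the negative library, with a median difference of -4.17 points against -8.84 for miR-191-5p, and 7 fell further. For miR-425-5p the mismatch share was 23.2% (16.4 to 31.1) and 38.7% (28.8 to 49.4), in the same order. These separate intervals overlap, which does not settle whether the difference exceeds counting error, and no interval on the difference was taken. The scarce 3p arms did not all share the order of the 5p arms. The mismatch share was 28.6% and 33.3% for miR-191-3p but 34.1% and 25.0% for miR-425-3p, and the listed sequence made up 17.3% and 22.2% of miR-191-3p reads and 19.5% and 29.2% of miR-425-3p reads, each pair of intervals overlapping. Counting the listed sequence alone brought the log2 ratio of miR-191-5p to -0.16 (-0.19 to -0.13).

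A trace of reads came from the other strand of the miR-191 locus. An entry named miR-191b, which the naming rule keeps apart from miR-191, covered bases 50735132 to 50735237 of chromosome 22 on the minus strand, with 1 read in the positive library and 3 in the negative library. Neither exceeds 3 reads, the upper limit set for a count of 0.

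Among other miRNAs of testis and sperm, the arms called lower all belonged to miR-34 and miR-449. The comparison list held miR-34b, miR-34c, miR-449a, miR-449b, miR-449c, miR-24, miR-184 and miR-122, and 10 of its 14 listed arms were measured. Of these, 7 were lower in CD49f-positive cells, against 24.8% of all names, and none was higher. The same count of 7 lower arms was found with TMM, where 16.4% of all names were lower. The 7 were arms of miR-34b, miR-34c, miR-449a and miR-449b, and those of miR-34b, miR-34c and miR-449a also make up the germ cell marker list above. Both arms of miR-34b, miR-34c and miR-449a are counted, so the 7 are not separate observations. The list's median log2 ratio was -2.01 beside -0.43 over all names. That median rests on these 7 arms, and the list was chosen with earlier results of these data known. Neither the count nor the median therefore describes testis miRNAs as a group. Its most abundant arm was miR-34c-5p, at -2.35 (-2.36 to -2.35). miR-24-3p, made from clusters with miR-23 and miR-27, was at -0.092 (-0.11 to -0.070) and turned above 0 with TMM, at 0.25. The remaining arms without a call were miR-24-5p at -0.32 and miR-184-3p at -0.53.

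Over the 2 libraries, miR-191-5p was closest in level and ratio to miR-27b-3p, which had 52657 and 22936.5 reads and stood at -0.22 (-0.24 to -0.20) on the log2 ratio scale. miR-24-3p followed with 55152 and 21983 reads, then miR-125b-5p with a log2 ratio of -0.67 (-0.69 to -0.64), and miR-30a-5p at -0.33 (-0.35 to -0.31). The distances of these 4 names, in units of log2 share over both libraries, were 0.14, 0.22, 0.32 and 0.42. miR-425-5p was closest to miR-142-3p, a blood cell miRNA with 138 and 100 reads, at a distance of 0.10, and then to miR-150-5p (0.13), miR-196a-5p (0.15) and miR-181c-3p (0.22). The log2 ratios of these 4 ran from -0.96 to -0.72, and each interval overlapped that of miR-425-5p.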

How the data were processed

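Small RNA libraries of sorted testicular cells of 3 goats were analysed, 1 library per group, placed by the labels. The authors compared reads with mammalian hairpins of miRBase, with a goat genome and with expressed sequences, per the file headers and deposited column notes; for the aligner, the releases and the build nothing is given in the sources used here. The values deposited for each arm are expected counts of reads, divided among hairpins where a read fits several. Copies of each listed sequence are whole read counts, per the file headers. Hairpin GC content is a percent and folding energy a score in kcal/mol, both as deposited. No normalization was recorded.

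Reads were summed per name and arm in each library, and entries without an arm in their name were given the arm with most reads over both libraries. Ratios are shares of named reads, positive over negative, with 0.5 reads added. Intervals are conditional binomial intervals of counts rounded to whole reads. A call asked for at least 100 summed reads, 2-fold and an interval excluding 1. TMM (edgeR 4.0.16) and median-of-ratios factors (DESeq2 1.42.0, R 4.3.3) came from the 298 names with at least 100 reads and served scaling only. Summing and intervals were run with SciPy 1.17.1, pandas 2.3.3 and numpy 2.4.6 in Python 3.11.15, and plots with matplotlib 3.10.9. The call rule was tested on simulated counts that held counting error alone, with the library totals given. That simulation had no variation between replicate libraries and no error of scaling, so it cannot test the rule for either. Named miRNAs were all member arms, the 4 nearest names to each 5p arm, up to 4 list members by reads and the 2 closest and 2 farthest pairs. miR-143 and miR-145, miR-199a-5p, miR-214-3p, miR-24-5p and miR-184-3p were also named after their values were seen. The members and lists were chosen with earlier results of these data known.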

Additional observations from a re-analysis of the deposited data

How the results depend on the processing

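No paired analysis was possible because each group has 1 library, and no library could be left out. The log2 ratio of miR-191-5p, -0.39 as reported, was -0.047 with TMM, 0.046 with median-of-ratios scaling, -0.080 with a total without the 10 most abundant names, -0.33 over reads with no mismatch and -0.16 with the listed sequence alone. Factors taken with no minimum of reads among the 1808 names were an alternative chosen after seeing the data, and they include many names with few reads. They raised log2 ratios by 0.82 with TMM and 0.83 with median of ratios. This brought miR-191-5p to 0.43 and 0.45 and miR-425-5p to -0.032 and -0.018. Median of ratios from measured names gave -0.42 for miR-425-5p, whose other alternatives lay within its interval. The gap between the partners, 0.47 (0.068 to 0.85), cannot move with scaling. It was 0.28 over reads with no mismatch and 0.52 with the listed sequence alone, where both intervals included 0, and 0.49 with 5 reads added. The number of names called was 80 of 298 as reported, 51 of 212 with listed sequences alone and 53 of 228 at known hairpins. It was 169 of 592 with a minimum of 10 reads, 27 of 140 with 1000 and 13 of 298 at 4-fold. The number of names tested thus changed with the setting too. The cause of these shifts was not tested. The few reads of miR-425 and of the 3p arms give wide intervals, and whether that of miR-425-5p includes 2-fold depends on the scaling.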
